A study of Rattus norvegicus with 6 samples.

Results

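The genes described here encode the core of the 2 Polycomb repressive complexes. They were found by name: the spots of the array that are not controls and whose gene name in the array files is *Ezh1*, *Ezh2*, *Eed*, *Suz12*, *Bmi1*, *Ring1*, *Rnf2*, *Cbx2*, *Cbx7* or *Cbx8*. All 10 were on the array, on 12 of its 45598 non-control probes and among 18692 genes with a symbol. β-cells were sorted from the islets of young adult male Wistar rats by size, granularity and Newport Green, a dye that binds zinc, after overnight culture with the thymidine analogue EdU in low glucose. Cells that had taken up EdU are called replicating and cells that had not are called quiescent, and both were fixed, permeabilized and sorted in the same run, so both groups carry the culture, the fixation and the EdU exposure. There were 3 islet preparations of 4 rats each, pooled, and each gave 1 replicating and 1 quiescent sample, 6 arrays in all.

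Polycomb proteins keep genes silent by marking histones. In Polycomb repressive complex 2 (PRC2) the methyltransferase EZH2, or its relative EZH1, adds methyl groups to a lysine of histone H3, and EED and SUZ12 hold the enzyme in its active form. In Polycomb repressive complex 1 (PRC1) the RING proteins, encoded by *Ring1* and *Rnf2*, attach ubiquitin to histone H2A together with a partner such as BMI1, and CBX proteins bind the methylated histone H3. In β-cells the complexes are known for silencing the *Ink4a* locus (*Cdkn2a*), whose products hold back the cell cycle and accumulate with age.

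For the promoters, RefSeq sequence of the rat assembly GRCr8 was available for 8 of the 10 genes, from 250 bases before to 50 bases after the start of each gene. Those of the PRC2 core genes *Ezh2*, *Eed* and *Suz12* are shown, and the promoter of *Ezh1* was not available. Capitals mark letters that match an E2F-type site (TTTCCCGC, TTTCGCGC, TTTGCCGC or TTTGGCGC), a CCAAT box (CCAAT) or a CHR element (TTTGAA), each searched on both strands. These are the letters to which E2F, NF-Y and the MuvB complexes of the cell cycle are known to bind. *Ezh2* lies on the minus strand at chr4:77687134-77687433, *Eed* on the minus strand at chr1:153307451-153307750 and *Suz12* on the plus strand at chr10:65464719-65465018. Each sequence is read along the strand of its gene.
Ezh2: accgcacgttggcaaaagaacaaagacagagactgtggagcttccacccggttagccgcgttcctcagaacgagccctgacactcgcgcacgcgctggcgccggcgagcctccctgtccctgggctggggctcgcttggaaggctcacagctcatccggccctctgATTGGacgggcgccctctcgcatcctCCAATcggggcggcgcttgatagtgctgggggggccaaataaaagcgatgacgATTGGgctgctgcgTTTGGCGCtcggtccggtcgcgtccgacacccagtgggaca
Eed: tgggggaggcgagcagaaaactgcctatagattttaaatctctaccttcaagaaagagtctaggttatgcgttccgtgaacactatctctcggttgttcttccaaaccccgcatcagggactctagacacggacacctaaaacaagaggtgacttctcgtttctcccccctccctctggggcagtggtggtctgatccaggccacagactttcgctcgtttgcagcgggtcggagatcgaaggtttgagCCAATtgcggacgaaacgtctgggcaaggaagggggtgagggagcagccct
Suz12: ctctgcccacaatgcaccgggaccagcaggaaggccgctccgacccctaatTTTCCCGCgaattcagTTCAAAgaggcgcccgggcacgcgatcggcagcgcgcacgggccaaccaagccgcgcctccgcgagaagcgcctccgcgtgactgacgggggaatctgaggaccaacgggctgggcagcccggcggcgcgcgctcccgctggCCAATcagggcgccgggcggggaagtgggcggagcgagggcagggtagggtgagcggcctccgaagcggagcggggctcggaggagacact

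An E2F-type match was present in *Ezh2* and *Suz12*, so in 2 of the 8 promoters, and in 2.14% of 33469 promoters of the same length. The match in *Ezh2* began 9 bases after the start of the gene. CCAAT was present in 5 of the 8, against 37.5% of all promoters, with 3 matches in *Ezh2*. TTTGAA was present in 2 of the 8, *Suz12* and *Cbx7*, against 18.3%. *Bmi1*, *Ring1* and *Rnf2* had no match to any of these letters in this window. Such matches describe the letters and do not show that a protein binds there.

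The arrays are Agilent rat gene expression arrays of 1 colour, and the values are log2 signals after background correction and quantile normalization. No spot was saturated, and between 80.8% and 98.5% of the probes were well above background on each array. The share was 96.4% and 98.5% on quiescent arrays 1 and 2 and 80.8% to 87.3% on the others. The 6 cell cycle genes *Mki67*, *Pcna*, *Top2a*, *Cdk1*, *Ccnb1* and *Mcm5* were each higher on all 3 replicating arrays than on any quiescent array, as were 10.9% of all genes. The median log2 ratio of the 6 was 3.50. For *Mki67* the groups were close, with 12.28 on replicating array 3 and 12.23 on quiescent array 2. The 9 β-cell markers on the array, among them *Ins1*, *Ins2*, *Pdx1* and *Mafa*, had signals well above background on all 6 arrays. Of these 9, 1 was lower at an unadjusted p of at most 0.05 in limma (*Mafa*, log2 ratio -1.01) and 0 were higher. Their median log2 ratio was -0.56, with 6 of 9 below 0, and 3 of them did not overlap between the groups, all lower in the replicating samples, where 6.08% of all genes were. The ratio was -0.76 for *Pdx1*, -0.70 for *Slc2a2*, -0.60 for *Ucn3* and, without the missing quiescent value of preparation 2, -0.56 for *Nkx6-1*, and 0.25 for *Ins1*, 0.42 for *Ins2* and 0.33 for *Iapp*. The part of these differences in the values of the Polycomb genes was not tested. Quiescent array 2 stood apart, with a Pearson's r across probes of 0.654 to 0.830 with the other quiescent arrays, whereas the replicating arrays had 0.967 to 0.986 with each other. Quiescent array 3 was closer to the replicating arrays (0.943 to 0.969) than to the other quiescent arrays. The quiescent arrays were the more variable: in all 9 members with a value on every array the SD was larger among the quiescent than among the replicating arrays, as in 86.8% of all genes. Their median SD was 0.75 and 0.20 in the 2 groups.

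Of the 10 Polycomb genes, *Ezh2* alone was higher in the replicating β-cells at an unadjusted p of 0.05 or less, whereas 0 were lower, in a limma fit that paired the samples of a preparation. Over all genes, with 1 probe each, 6.44% were higher and 3.05% lower by the same rule, 9.5% in all, so 1 of 10 is close to the background. At an adjusted p under 0.05 over all probes 0 members passed, as did 0% of all probes (limma with Benjamini-Hochberg adjustment), whereas 4379 probes, or 9.6%, had an unadjusted p of at most 0.05. The median log2 ratio of the 10 genes, replicating over quiescent, was 0.28, beside 0.01 over all genes. It was 0.41, 0.21 and 0.69 without preparation 1, 2 and 3, 0.09 with the processed signal of the scanner software and -0.076 with cyclic loess. With the processed signal the median of all probes was -0.71, beside -0.07 in the main fit. Ratios with the processed signal are therefore not on the level of those of the main fit. Some groups did not overlap: *Ezh2* and *Eed* lay above the quiescent arrays and *Ezh1* below them, 2 and 1 of the 9 members with all values, where 10.9% of all genes lay above and 6.08% below. In sorted pools fewer cells that hold an RNA and less of it per cell cannot be told apart.

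**Figure D1:**
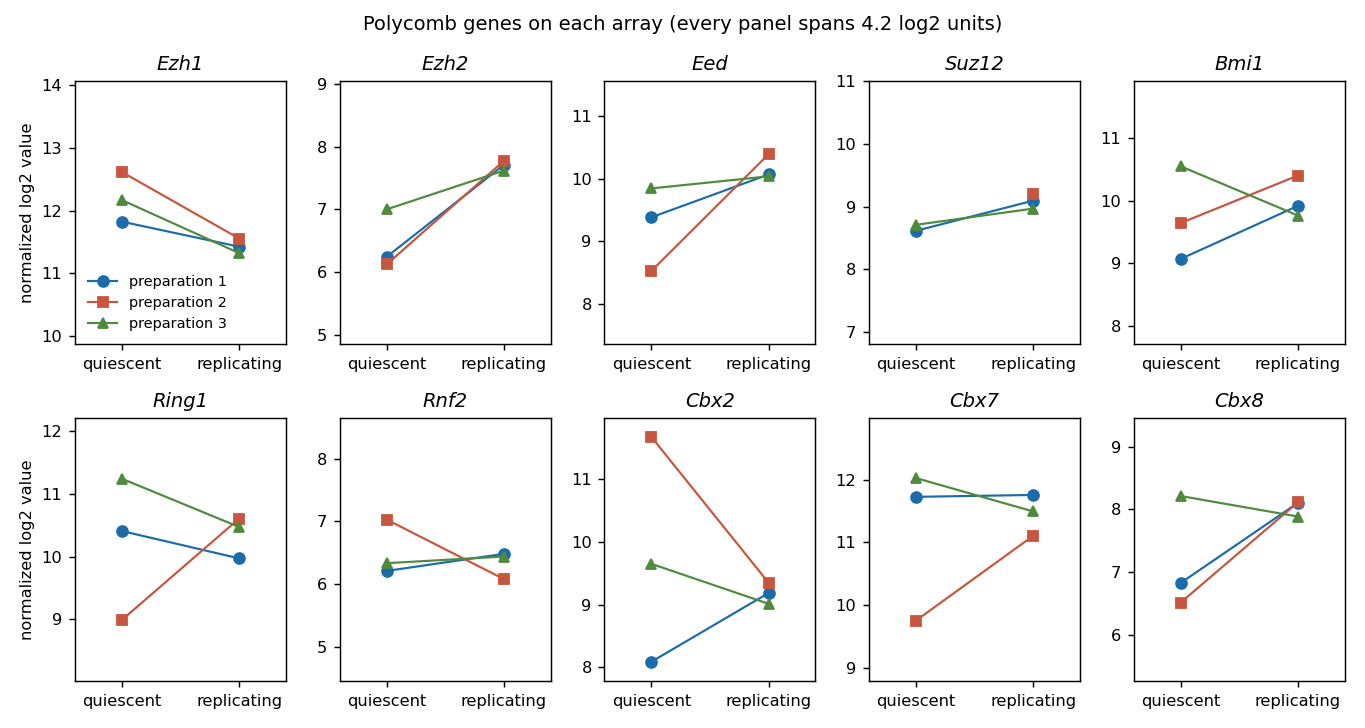
Normalized log2 value of the 10 Polycomb genes (y axis) on the quiescent and replicating arrays (x axis), 1 line for each islet preparation. *Ezh2* is higher and *Ezh1* lower in the replicating sample of every preparation, while *Cbx2*, *Ring1* and *Cbx7* spread over more than 2 log2 units among the quiescent arrays. *Suz12* has no line for preparation 2, where its quiescent spot was marked as an outlier.

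*Ezh2*, the main catalytic subunit of PRC2 in dividing cells, was measured by 1 probe of 60 bases, at chr4:75713707-75713766 on the minus strand of rn4. The files do not say in which part of the gene the probe lies.
Ezh2 probe: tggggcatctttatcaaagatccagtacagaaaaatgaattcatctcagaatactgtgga

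Its normalized log2 value was 7.71, 7.77 and 7.62 in the replicating samples, given in the order of preparations 1, 2 and 3 here and throughout. On the quiescent arrays it was 6.24, 6.12 and 7.00. All 3 replicating values were above all 3 quiescent values, and the highest quiescent value was that of preparation 3. The log2 ratio was 1.25 (standard error 0.36, 95% interval 0.33 to 2.17), or 2.37-fold, with 1.47, 1.65 and 0.62 in the 3 preparations. The limma p was 0.0173 before and 0.475 after Benjamini-Hochberg adjustment over all probes. Its signal counted as well above background on every array, but on quiescent arrays 1 and 2 it was near the lowest signal so called, 6.04 and 5.85. There the offset of the background correction matters: with an offset of 0 in place of 50 the log2 ratio was 2.35 (unadjusted p = 0.00797 in limma). Without preparation 1 the log2 ratio was 1.14 and the unadjusted p in limma 0.126, so that the call was lost.

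*Ezh1*, the relative of EZH2 that prevails in resting tissue, had lower values in the replicating samples. On the replicating arrays its log2 value was 11.42, 11.55 and 11.32. On the quiescent arrays it was 11.82, 12.61 and 12.17. Every replicating value lay below every quiescent value. The log2 ratio was -0.77 (standard error 0.32, 95% interval -1.60 to 0.06), with -0.40, -1.06 and -0.85 in the 3 preparations. It did not pass the threshold in limma (unadjusted p = 0.0628, adjusted p = 0.475), but without the preparation as a block the unadjusted p was 0.0368, and with cyclic loess 0.0343. With the processed signal the unadjusted p in limma was 0.398. The probe lies at chr10:90211283-90211342 of rn4.

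Since EZH1 and EZH2 occupy the same place in PRC2, their changes were set against each other within each preparation. The log2 ratio of *Ezh2* exceeded that of *Ezh1* by 1.87, 2.71 and 1.47 in preparations 1, 2 and 3, with a mean of 2.02 ± 0.64 (SD, n = 3). The difference had the same sign in all 3 preparations. The exact two-sided sign-flip permutation test over preparations gave p = 0.25, the smallest value that 3 pairs allow. The *Ezh2* to *Ezh1* signal thus changed unequally within each pair of arrays, which says nothing of how much of either RNA was present.

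*Eed*, the subunit that reads the methyl mark, had log2 values of 10.07, 10.39 and 10.04 on the replicating arrays. The quiescent values were 9.38, 8.53 and 9.84. The groups did not overlap, although preparation 3 was separated by 0.19 only. The log2 ratio was 0.91 (standard error 0.43, 95% interval -0.19 to 2.01), and the unadjusted p of 0.0863 in limma missed the threshold. Without preparation 2 the ratio was 0.44 and the unadjusted p 0.319 in limma. *Suz12*, the scaffold of PRC2, had 9.10, 9.20 and 8.97 on the replicating arrays. It had 8.62 and 8.71 on quiescent arrays 1 and 3, and on quiescent array 2 the spot was marked as an outlier, so the fit used preparations 1 and 3. The replicating values were all above these quiescent values. The log2 ratio was 0.37 (standard error 0.41, unadjusted p = 0.421 in limma). With the marked spot kept, at 8.84, it was 0.36 (unadjusted p = 0.292).

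**Figure D2:**
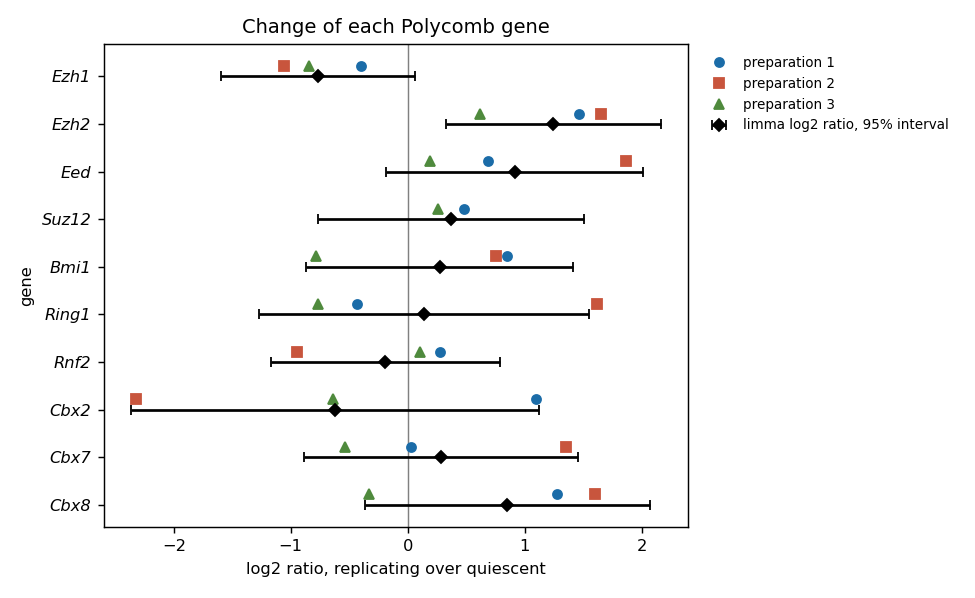
Log2 ratio of each Polycomb gene, replicating over quiescent (x axis). Black diamonds are the limma estimates with their 95% intervals, and coloured points are the 3 islet preparations. The interval of *Ezh2* (0.33 to 2.17) is the only one that leaves out 0.

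The members of PRC1 showed no change that passed the test. *Bmi1*, which stimulates the ubiquitin ligase of PRC1, was measured by 2 probes on chromosome 17 of rn4. The brighter one (chr17:92789921-92789980) read 9.92, 10.40 and 9.76 on the replicating arrays. On the quiescent arrays it read 9.07, 9.64 and 10.55. The groups overlapped, because the quiescent array of preparation 3 had the highest value of all. The ratios were 0.85, 0.76 and -0.79 in preparations 1, 2 and 3, and the estimate was 0.27 (standard error 0.45, 95% interval -0.87 to 1.41, unadjusted p = 0.567 in limma). The other probe (chr17:92787818-92787877) gave 0.04 (standard error 0.32), with -0.31, 0.34 and 0.09 in the preparations, so the 2 probes differed in sign in preparations 1 and 3. An increase of *Bmi1* by 1 log2 unit lies within the interval of the brighter probe and outside that of the other, whose upper bound was 0.87.

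The ligase genes *Ring1* and *Rnf2* did not separate the groups. *Ring1* read 9.97, 10.61 and 10.47 on the replicating arrays. It read 10.41, 8.99 and 11.25 on the quiescent arrays. The replicating values lay inside the quiescent range, and the log2 ratio was 0.14 (standard error 0.55), with -0.44, 1.62 and -0.77 in the preparations. *Rnf2* read between 6.08 and 6.48 on the replicating arrays and between 6.21 and 7.03 on the quiescent arrays, with a log2 ratio of -0.19 (standard error 0.38). It was well above background on 2 arrays of each group, and with the processed signal its log2 ratio was -1.78. Its second probe stayed below that limit on all 6 arrays.

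The CBX genes, whose proteins bring PRC1 to methylated histone H3, differed among themselves. *Cbx8* read 8.10, 8.11 and 7.89 on the replicating arrays. It read 6.83, 6.51 and 8.21 on the quiescent arrays. Preparations 1 and 2 had ratios of 1.28 and 1.60, whereas preparation 3 had -0.33, and the estimate of 0.85 (standard error 0.48) had an unadjusted p of 0.134 in limma. Without preparation 1, 2 and 3 it was 0.64, 0.48 and 1.44, with an unadjusted p of 0.422, 0.367 and 0.0191 in limma. With the processed signal it was 0.43 and with an offset of 0 it was 1.37.

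*Cbx7*, a CBX gene known for silencing the *Ink4a* locus, read 11.76, 11.11 and 11.49 on the replicating arrays. It read 11.73, 9.75 and 12.03 on the quiescent arrays. The groups overlapped, and the log2 ratio was 0.28 (standard error 0.46). *Cbx2* read 9.19, 9.35 and 9.02 on the replicating arrays. It read 8.09, 11.68 and 9.65 on the quiescent arrays, the widest range of any member. Its ratios of 1.10, -2.33 and -0.64 disagreed in sign, and the estimate of -0.62 (standard error 0.69) was turned to 0.23 by leaving out preparation 2. *Cbx2* and *Cbx8* are neighbours on chromosome 10 of GRCr8, and their ratios had opposite signs in preparation 2 and the same sign in preparations 1 and 3.

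The ratios of the members differed between preparations. In preparation 1, 8 of 10 had a ratio above 0, in preparation 2, 6 of 9, and in preparation 3, 4 of 10, where 54.8%, 52.3% and 44.4% of all genes were. The medians were 0.58, 1.35 and -0.43. Over all genes the medians were 0.09, 0.07 and -0.05, and over the 6 cell cycle genes they were 3.47, 3.44 and 3.71. Of these 6, *Mki67* and *Pcna* varied most, with ratios of 2.27, 0.63 and 4.08 and of 1.87, 2.43 and 0.73. Of the 9 members with a ratio in every preparation, *Ezh2* and *Eed* were above 0 in all 3. *Ezh1* was the one below 0 in all 3, where 17.9% and 18% of all genes were above and below. *Suz12* was above 0 in preparations 1 and 3, with 0.48 and 0.26. In preparation 2 its marked quiescent spot read 8.84, beside 9.20 on the replicating array.

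Other Polycomb genes were read from lists of PRC2 partners, further PRC1 subunits and enzymes that oppose the complexes, with 40 of 43 genes on the array. At an unadjusted p of at most 0.05 in limma, 5 of the 40 were higher and 0 lower, beside 6.44% and 3.05% of all genes, and 0 passed the adjusted p over all probes. The ratio was above 0 for 34 of the 40, or 85%, against 50.3% of all genes, and their median was 0.58. By preparation it was 0.66, 1.29 and -0.11, and 35 of 40, 31 of 39 and 15 of 40 were above 0, beside the shares of all genes given above. The count of 5 depended on single preparations: without preparation 1, 2 or 3 it was 1, 2 and 14. It was 1 with the processed signal of the scanner software and 3 with a variance trend.

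Among the PRC2 partners 3 of 9 were higher. *Phf19*, a Tudor-domain subunit that helps to bring PRC2 to chromatin, had the largest ratio of the 40, at 2.47 (standard error 0.43, unadjusted p = 0.00204 and adjusted p = 0.351 in limma). It read 11.52, 11.72 and 11.50 on the replicating arrays. It read 8.06, 9.77 and 9.49 on the quiescent arrays. The groups were more than 1 log2 unit apart, and the ratios were 3.46, 1.94 and 2.01 in the 3 preparations. *Rbbp7*, a histone chaperone shared with other chromatin complexes, had a ratio of 1.69 (standard error 0.59, unadjusted p = 0.0337), but 0.29 in preparation 3. *Aebp2*, a zinc-finger partner of PRC2, had 0.91 (standard error 0.34, unadjusted p = 0.0413), with 0.96, 1.29 and 0.47.

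Of the 23 further PRC1 subunits 2 were higher. *Phc2*, which joins PRC1 complexes into clusters, had a ratio of 1.38 (standard error 0.39, unadjusted p = 0.0152 in limma), with 1.37, 2.07 and 0.71 in the preparations. *L3mbtl2*, a member of a PRC1 variant with *E2f6*, had 1.16 (standard error 0.40, unadjusted p = 0.0324), with 1.30, 1.80 and 0.37. Of the 8 opposing enzymes 0 passed in either direction in limma. These are demethylases and deubiquitinases of the marks set by the 2 complexes, with partners of these enzymes, and their median ratio was 0.28. They ran from -1.07 for *Usp21* to 0.74 for *Kdm6b*.

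**Figure D3:**
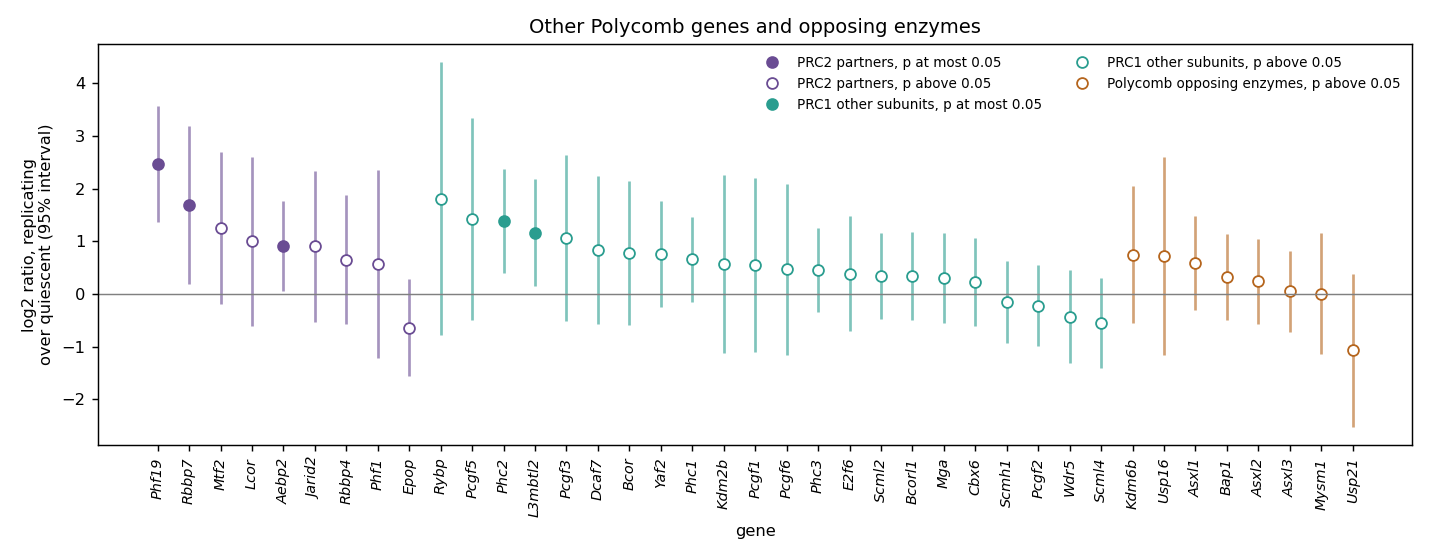
Log2 ratio, replicating over quiescent (y axis), with its 95% interval for 39 of the 40 other Polycomb genes and opposing enzymes (x axis). Filled circles have an unadjusted p of at most 0.05 in limma. The 5 filled circles are *Phf19*, *Rbbp7*, *Aebp2*, *Phc2* and *L3mbtl2*, all above 0.

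**Figure D4:**
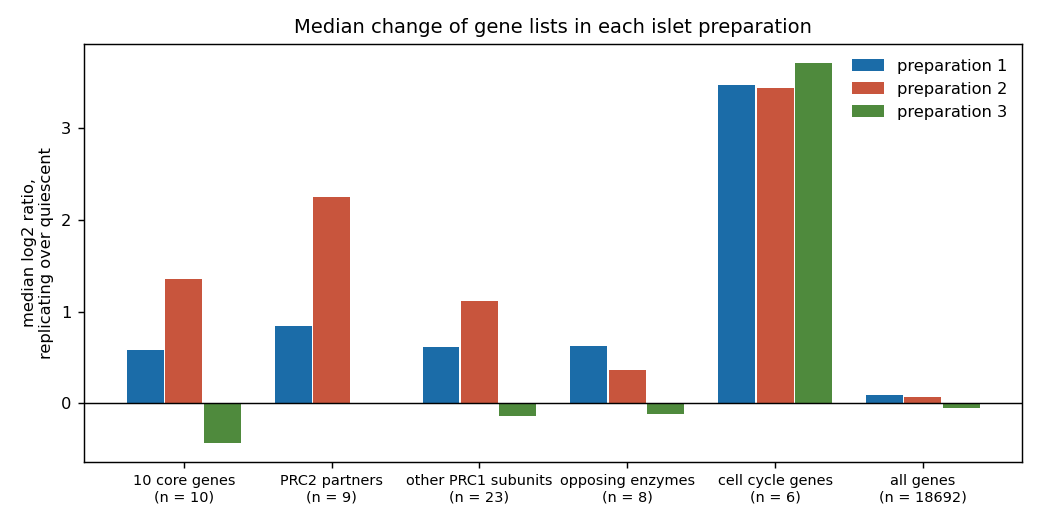
Median log2 ratio, replicating over quiescent (y axis), of 6 gene lists (x axis) in each islet preparation. The median of the cell cycle genes stands between 3.44 and 3.71 in every preparation, whereas that of the 10 core genes goes from 0.58 and 1.35 to -0.43.

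Of the *Ink4* and CIP/KIP inhibitors, *Cdkn2a* belongs to the *Ink4a* locus that Polycomb complexes are known to silence. The others were read beside it and are not taken here as Polycomb targets. *Cdkn2a*, which encodes the p16 and ARF proteins, was higher in the replicating β-cells. It read 8.44, 8.24 and 7.96 on the replicating arrays. It read 7.26, 7.61 and 7.09 on the quiescent arrays. The groups did not overlap, and the log2 ratio was 0.89 (standard error 0.32, unadjusted p = 0.0359 and adjusted p = 0.475 in limma). *Cdkn2b*, its neighbour that encodes p15, had a ratio of -0.31 (standard error 0.51), with 0.30, -1.65 and 0.43 in the preparations. *Cdkn2c* had 1.57 (unadjusted p = 0.00555) and *Cdkn1a* 1.91 (unadjusted p = 0.0109). *Cdkn1c* had 0.02. In all, 3 of the 5 were higher and 0 lower in limma at the unadjusted p, beside 6.44% and 3.05% of all genes.

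Markers of other cells moved with the groups in part. The 8 fibroblast and stellate markers had a mean log2 value of 9.13 to 10.29 on the replicating and 8.49 to 8.55 on the quiescent arrays, and all 8 had a ratio above 0. The 6 alpha cell markers had 8.66 to 9.46 and 7.96 to 8.48, and 4 of them were above 0, with a ratio of 2.39 for *Gcg*, the glucagon gene. The 3 delta and PP cell markers had 9.71 to 10.32 and 8.52 to 9.42. For acinar, duct and endothelial markers the ranges of these means overlapped between the groups, and the 5 immune markers had 8.23 to 8.31 and 7.87 to 8.01. The ratio was above 0 for 6 of 8 acinar, 1 of 5 duct and 3 of 5 endothelial markers. At an unadjusted p of at most 0.05 in limma, 2, 1 and 0 of them were higher and 0 lower, beside 6.44% and 3.05% of all genes. By the same rule 2 of 8 fibroblast and stellate, 2 of 6 alpha, 2 of 3 delta and PP and 1 of 5 immune markers were higher. In these lists 0 were lower. The fibroblast and stellate markers called were *Col1a2* (log2 ratio 2.93, unadjusted p = 0.000397 in limma) and *Col3a1* (3.04, unadjusted p = 0.000832). The part of all these markers in the values of the Polycomb genes was not tested.

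The genes whose pattern over the 6 arrays was nearest to *Ezh2* were *Asap1*, *H2az1*, *Fundc2*, *Nedd1* and *Scn8a*, out of 15104 genes well above background on all arrays. The root mean square difference of their mean-centred log2 values from those of *Ezh2* was 0.08, 0.08, 0.10, 0.10 and 0.11. *H2az1* encodes the histone variant H2A.Z and *Nedd1* a centrosomal protein. *H2az1* read 14.91, 14.85 and 14.70 on the replicating and 13.37, 13.16 and 13.94 on the quiescent arrays. The quiescent array of preparation 3 was the highest of its group, which follows from choosing the gene by its likeness to *Ezh2* on these arrays. Nearest to the brighter *Bmi1* probe were *Unc79*, *Tox4*, *Myl12b*, *Atg9a* and *Cct8*, at 0.08, 0.10, 0.10, 0.11 and 0.13. All 5 had their highest value of the 6 arrays on the quiescent array of preparation 3. This too follows from the choice, as *Bmi1* was highest there.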

How the data were processed

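RNA of 6 sorted samples was amplified by whole transcriptome amplification, labelled with Cy3 and hybridized to Agilent arrays, which Feature Extraction 10.7.3.1 read. The deposited scanner files hold the intensity of each spot, not normalized, with its marks. A table of log2 values, which the authors made by normexp background correction and quantile normalization, was used here. Recomputing them from the intensities in limma 3.58.1 with R 4.3.3 and an offset of 50 gave differences of at most 0.000245, which settles their scale and direction. Each column had a median of 8.32. Control spots were left out, spots marked as outliers (252 to 1583 per array) were set to missing and spots of a probe were averaged. Probes were named through RefSeq accessions of GRCr8 (21109 by systematic name, 2736 by another accession) or by the name in the files (21753). Of several probes for 1 gene, the brightest over all arrays was taken. Probe positions are on rn4.

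limma (lmFit and eBayes) was fitted to all 45598 probes with a block for the islet preparation, following the paired analysis of the study. The pairing comes from the labels, and after the group means were taken off, paired arrays correlated with an r of 0.0561, 0.242 and 0.258. Replicating and quiescent arrays of different preparations had -0.312 to 0.169, and the value of preparation 1 lay within that range. The p-values of this fit set each log2 ratio against how the paired differences varied over the preparations. Differences in level between the pools of rats are taken up by the block, and eBayes drew each variance towards that of all probes. The fit was tested on simulated data, and the outcome is not given here. The members and lists were chosen with earlier results of these data known. The genes named are the members, the other Polycomb genes with an unadjusted p of at most 0.05, *Cdkn2a* and *Cdkn2b*, the cell cycle check, the insulin genes and the 5 nearest patterns to *Ezh2* and *Bmi1*. The remaining inhibitors, list extremes and markers were named after their values were seen. 1 gene of these lists is counted but not reported by name here. The number of arrays limits the precision. There were 12 alternatives, and the qPCR and culture experiments were not analysed here.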

Additional observations from a re-analysis of the deposited data

How the results depend on the processing

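Values recomputed from the scanner intensities with an offset of 50 gave the same counts. Over the 12 alternatives the log2 ratio of *Ezh2* ran from 1.04 to 2.35, and it lost the unadjusted threshold only without preparation 1. That of *Ezh1* ran from -0.95 to -0.56. The -0.56 came with the processed signal (unadjusted p = 0.398 in limma), where the median of all probes was -0.71. In that setting *Ezh1* was thus not below the level of all probes. Most alternatives could not change the signs of the *Ezh2* and *Ezh1* ratios. Recomputed values, kept outlier spots, the background filter, the block, the variance trend and the probe median left both ratios as they were. Leaving out 1 preparation could not turn a sign on which all 3 preparations agreed. With cyclic loess 1 member was lower, as without the replicate block, the median of the members was -0.076, *Bmi1* had -0.046, *Ring1* -0.31 and *Cbx7* -0.13, and 1 other Polycomb gene was lower. Scaling the processed signal to the 75th percentile moved the median of all probes to -0.71, from -0.07, gave *Ring1* -0.16, *Rnf2* -1.78 and *Cbx8* 0.43 and left 1 other Polycomb gene higher. With a variance trend 3 of these were higher and 1 lower. With an offset of 0 the difference of *Ezh2* and *Ezh1* was 3.13. Leaving out 1 preparation at a time, 0 to 2 members and 1 to 14 other Polycomb genes were higher, the median of the members ran from 0.21 to 0.69, and the log2 ratios from 0.44 to 1.27 for *Eed*, from 0.48 to 1.44 for *Cbx8*, from -0.013 to 0.80 for *Bmi1*, from -0.60 to 0.59 for *Ring1*, from -0.42 to 0.19 for *Rnf2*, from -1.48 to 0.23 for *Cbx2* and from -0.25 to 0.69 for *Cbx7*. Without the replicate block *Ezh1* passed the unadjusted threshold and the calls of the other members did not change. Over all probes 0 passed the adjusted p, but 204 did with cyclic loess, 99 without the replicate block, 61 with a variance trend and 84 without preparation 2, and the count at the unadjusted p ran from 578 without preparation 1 to 10720 without preparation 3. *Suz12* could not be fitted without preparation 1 or 3, and *Rnf2* gave no value among probes well above background on a whole group. The causes were not tested. The 3 arrays per group limit every estimate.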

Other observations

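Hox genes, which Polycomb complexes keep silent outside their own segment of the body, were on the array with 30 genes. Of these, 26 had a ratio below 0, against 49.7% of all genes, with a median log2 ratio of -0.26, and 24 were well above background on all 6 arrays. At an unadjusted p of at most 0.05 in limma 2 were lower (*Hoxa2* and *Hoxa13*) and 0 higher, beside 3.05% and 6.44% of all genes, and 0 passed the adjusted p over all probes. The mean log2 value of the 30 genes was 7.31 to 7.52 on the replicating arrays. On the quiescent arrays it was 7.82, 8.50 and 7.26 in preparations 1, 2 and 3, so that preparation 3 lay below the replicating arrays. Over all genes the mean was 8.84 to 8.92, so their shares are not those of genes with a like signal. More probes were well above background on quiescent arrays 1 and 2, 96.4% and 98.5%, than on the others, 80.8% to 87.3%. The part of this in the Hox ratios was not tested. The medians of the ratios were -0.39, -0.74 and -0.00 in the 3 preparations. *Hoxa13* read 6.97, 7.38 and 7.19 on the replicating and 9.86, 10.60 and 7.03 on the quiescent arrays, and *Hoxa2* 9.91, 10.43 and 9.86 against 11.63, 11.71 and 10.09. These genes are named after their values were seen.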
